A study of Homo sapiens with 6 samples.

Results

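The BCL2 family sets the threshold at which a cell dies through its mitochondria. Survival members such as BCL2, BCL-XL and MCL1 hold the pore-forming proteins BAX and BAK in check, and the BH3-only proteins, among them BIM, NOXA, PUMA, BIK and BMF, bind the survival members or activate BAX and BAK when a growth signal is lost or a cell is damaged. In cancers driven by a receptor kinase, BIM is known as a protein that accumulates when the kinase is inhibited, because ERK signalling otherwise marks it for breakdown. Only transcripts were measured here, and protein levels and cell death were not.

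The 10 genes BCL2, BCL2L1, MCL1, BCL2L11, BAX, BAK1, BBC3, PMAIP1, BIK and BMF were chosen by name for their roles, and 9 of them were found among the 19775 genes measured. The only probe set annotated to BBC3, the gene of PUMA, carries several symbols and was not read as that gene. For each gene the brightest probe set, by its mean over the 6 arrays, stands for it, and the remaining ones are described beside it. The values are log2 signals that the authors made by RMA (robust multi-array average), a method that subtracts background, puts the arrays on a common distribution and summarizes the probes of each set. A difference of 1 on this scale is a 2-fold change, and signals of different probe sets are not compared with each other because probes differ in brightness.

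SY5Y-TR1 cells, a TAE684-resistant subline kept in medium with 1 μM of that ALK inhibitor, were measured on 3 Affymetrix U133 Plus 2.0 expression arrays, and the TAE684-sensitive parental SH-SY5Y cells, kept in medium without it, on another 3. Both are human neuroblastoma (NB) cells that carry ALK F1174L, a mutation that keeps the kinase active. SY5Y-TR1 is 1 of the subclones expanded after months of rising TAE684 doses, so the selection, the clone and the drug in the medium cannot be told apart in this comparison. The labels call the arrays of each line biological replicates, whereas the design text counts 1 sample per line with replicates run for it. Whether each array had a culture of its own is not stated, and the p-values then measure only the spread between arrays, which may be technical.

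Array medians ran from 5.56 to 5.59, and arrays of a line correlated at a Pearson's r of 0.997 to 0.998 across probe sets, against 0.959 to 0.960 for arrays of different lines. The values came without detection calls, so 36 measured genes of unrelated tissues served as a guide to the background, and the 90th percentile of their means, 6.36, is called the background level. Where every array of a line lay at or under it, only a bound is given for that line. Markers of noradrenergic neuroblasts were present in SH-SY5Y, with 12 of 13 measured markers above the background level on all 3 arrays, against 7 of 13 in SY5Y-TR1. TH, which encodes the first enzyme of catecholamine synthesis, lay under that level on all 6 arrays. None of 5 Schwann cell, 8 endothelial and 6 blood cell markers exceeded it on all 3 arrays of either line.

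Genes count as called here if they differed by 2-fold or more and had a Benjamini-Hochberg adjusted p under 0.05 in the limma fit over all genes. By this rule 1 of the 9 members was higher in SY5Y-TR1, 2 were lower and 6 were not called, where 11.4% of all genes were called (5.36% higher and 5.99% lower). BAX, which encodes a pore-forming death protein, was 2.69-fold higher. BCL2, which encodes the survival protein that gave the family its name, was at least 4.77-fold lower, and BCL2L11, the gene of BIM, was 3.95-fold lower. Without the fold limit, 4 members were higher, 4 were lower and BAK1 alone did not pass, where 52.8% of all genes passed (28.5% higher and 24.3% lower). The arrays of the lines did not overlap for any of the 9 members, as was the case for 59.8% of all genes. The median log2 difference was 0.05 over the 9 members and 0.04 over all genes.

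**Figure D1:**
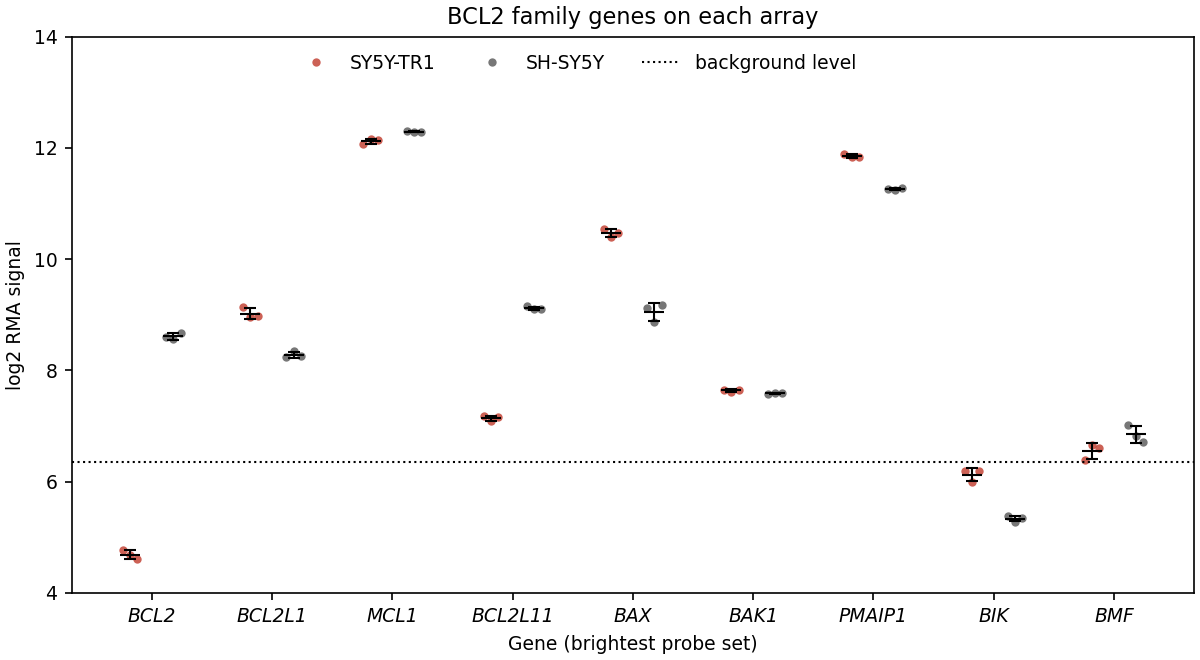
Log2 RMA signal (y axis) of 9 BCL2 family genes on each array, with the 3 SY5Y-TR1 arrays (red) left of the 3 SH-SY5Y arrays (grey) of each gene, bars for the mean and SD (n = 3 arrays) and a dotted line at the background level of 6.36. BCL2 stands at 4.68 in SY5Y-TR1, under the background level, and at 8.61 in SH-SY5Y, whereas MCL1 and BAK1 differ little between the lines.

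Among the survival genes, BCL2 was the one that was called. Its log2 signal was 4.76, 4.69 and 4.60 on the SY5Y-TR1 arrays, against 8.60, 8.56 and 8.67 on the SH-SY5Y arrays. All 3 SY5Y-TR1 arrays therefore lay under the background level, and all 3 SH-SY5Y arrays lay well above it. The log2 difference was -3.93 (standard error 0.06, adjusted p = 2.06e-08 from limma), and because the SY5Y-TR1 signal is only bounded, BCL2 was at least 4.77-fold lower. In bulk RNA of a culture, fewer cells with a transcript and less of it in each cell cannot be told apart.

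The lower BCL2 signal rests on 1 of its 4 probe sets, the brightest. A further probe set read BCL2 at 5.01 in SY5Y-TR1 and 5.63 in SH-SY5Y (means, n = 3 arrays each), lower by 0.61 on the log2 scale with an adjusted p of 0.00216 from limma, but under the background level in both lines. Another pair was designed on the transcript of the shorter beta form. Of these, one was close to the background level, at 6.50 in SY5Y-TR1 and 6.41 in SH-SY5Y, and the other was under it, at 5.12 in SY5Y-TR1 and 5.20 in SH-SY5Y, and neither passed. The difference in BCL2 was therefore measured only where the signal of SH-SY5Y exceeded the background clearly.

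BCL2L1, which encodes BCL-XL, a survival protein, moved in the opposite direction to BCL2 but stayed under the 2-fold limit. Its log2 signal was 9.13, 8.96 and 8.98 in SY5Y-TR1, against 8.24, 8.34 and 8.25 in SH-SY5Y. Every SY5Y-TR1 array was thus higher than every SH-SY5Y array, by 0.74 on the log2 scale on average (standard error 0.06, adjusted p = 4.64e-05 from limma), or 1.67-fold. The other 3 probe sets of BCL2L1 had log2 differences from 0.27 to 0.48, and none of them was above the background level in SH-SY5Y on any array. The microarray does not separate the long survival form of BCL2L1 from the short form, which promotes death.

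MCL1, which encodes a short-lived survival protein, had a high signal in both lines. It read 12.07, 12.16 and 12.14 in SY5Y-TR1, against 12.30, 12.29 and 12.29 in SH-SY5Y, a 1.13-fold difference (log2 difference -0.17, standard error 0.04, adjusted p = 0.0120 from limma). The SY5Y-TR1 arrays were all lower, by a small step. The other 5 MCL1 probe sets had log2 differences from -0.03 to 0.09 and none passed, so the brightest probe set alone carried the difference.

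BAX was higher through both of its probe sets. The brighter read 10.55, 10.40 and 10.48 in SY5Y-TR1, against 9.12, 8.86 and 9.17 in SH-SY5Y, which is 1.43 log2 units higher (standard error 0.09, limma adjusted p = 9.15e-06). The lowest SH-SY5Y array, replicate 2, widened the spread of that line to an SD of 0.16, still far less than the difference. The second BAX probe set was 1.31 log2 units higher (standard error 0.11, limma adjusted p = 5.06e-05). Both names carry the suffix of probes that more than 1 transcript shares.

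BAK1, whose protein forms the same kind of pore as BAX, was not called. Its signals were 7.65, 7.61 and 7.65 in SY5Y-TR1, against 7.58, 7.59 and 7.60 in SH-SY5Y, which left a log2 difference of 0.05 (95% interval -0.04 to 0.14, adjusted p = 0.327 from limma). The interval holds no change as large as 2-fold. BAK1 has 1 probe set on the array, well above the background level in both lines.

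**Figure D2:**
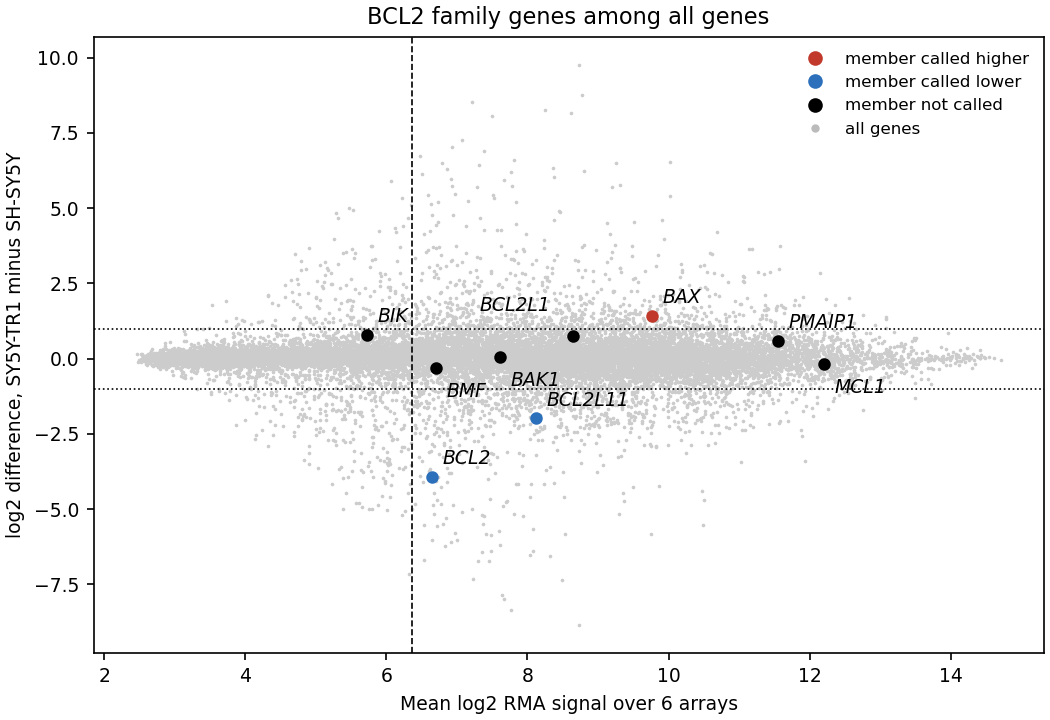
Log2 difference of SY5Y-TR1 minus SH-SY5Y (y axis) against the mean log2 RMA signal over 6 arrays (x axis) for 19775 genes (light grey) and 9 BCL2 family genes (BAX, called higher, in red, BCL2 and BCL2L11, called lower, in blue, the others in black). Dotted lines mark 2-fold and the dashed line the background level of 6.36. BCL2 lies at -3.93 and BCL2L11 at -1.98, below the band that holds most genes.

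The promoter of BAX is shown because BAX was the member called higher. Among the elements searched was the E-box CACGTG, which the factor MYC recognizes. MYC was called lower, in the direction opposite to BAX (described below). The 250 bases before the RefSeq start of BAX, at chr19:48954625-48954874 on the plus strand of GRCh38.p14, are printed with each CACGTG in capitals.
BAX: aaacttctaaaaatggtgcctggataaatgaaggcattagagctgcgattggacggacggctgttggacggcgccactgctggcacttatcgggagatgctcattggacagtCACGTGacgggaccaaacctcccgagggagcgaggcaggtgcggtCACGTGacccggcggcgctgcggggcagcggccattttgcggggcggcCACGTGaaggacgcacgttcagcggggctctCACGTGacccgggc
The element reads the same on both strands. It occurred 4 times in this window, with first bases 138, 93, 45 and 14 bases before the start. At least 1 copy was found in 6.34% of 35116 RefSeq promoter windows of this length, and 4 or more in 5 of them. The limit of 4 was taken from the count in BAX, which is 1 of these 5, so nothing is read from that rarity. A match of letters is a description of the sequence. Binding was not measured, and a link between MYC and BAX was not tested.

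The BH3-only genes did not move together. BCL2L11 read 7.17, 7.08 and 7.15 in SY5Y-TR1, against 9.15, 9.10 and 9.10 in SH-SY5Y. Each line was tight and well above the background level, with a gap of almost 2 log2 units between them. The difference was -1.98 (standard error 0.04, adjusted p = 9.22e-08 from limma), or 3.95-fold lower.

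BCL2L11 is covered by 7 probe sets, of which 2 were called lower and none higher. The second-brightest was 3.47-fold lower, at 6.47 in SY5Y-TR1 and 8.27 in SH-SY5Y (log2 difference -1.79, standard error 0.11, adjusted p = 8.30e-06 from limma). The next was 1.54-fold lower and stayed under the limit. The other 4 lay under the background level in both lines, with log2 differences from -0.76 to -0.05. When the 7 probe sets were averaged, BCL2L11 was lower by 0.90 on the log2 scale (adjusted p = 9.27e-06 from limma) and was no longer called.

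The promoter of BCL2L11 is shown because its FOXO element is a textbook route by which FOXO factors raise BIM. The 250 bases before its RefSeq start lie at chr2:111120664-111120913 on the plus strand of GRCh38.p14, with the match to TGTTTAC, here on the opposite strand, in capitals.
BCL2L11: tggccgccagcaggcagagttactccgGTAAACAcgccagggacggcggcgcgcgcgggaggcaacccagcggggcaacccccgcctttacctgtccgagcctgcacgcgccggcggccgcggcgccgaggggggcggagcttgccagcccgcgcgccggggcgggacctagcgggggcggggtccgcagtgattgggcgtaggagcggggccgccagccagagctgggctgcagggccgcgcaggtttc
The match starts 223 bases before the start, and 2.98% of all windows hold one on either strand. This was the only FOXO match in 10 promoter windows of the 8 genes of the family that had one. FOXO3, which encodes a factor that binds it, differed by -0.80 log2 units (standard error 0.05, limma adjusted p = 8.06e-06), under the 2-fold limit. FOXO1 stood at 0.08 and did not pass. Binding of FOXO factors was not measured, and a link between FOXO3 and the BCL2L11 signal was not tested.

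PMAIP1, which encodes NOXA, a BH3-only protein that binds MCL1 above all, was higher by less than 2-fold. It read 11.89, 11.83 and 11.84 in SY5Y-TR1, against 11.27, 11.24 and 11.28 in SH-SY5Y, or 1.51-fold (log2 difference 0.59, standard error 0.04, adjusted p = 1.77e-05 from limma). The SY5Y-TR1 arrays were all above the SH-SY5Y arrays. The second PMAIP1 probe set gave 1.44-fold (log2 difference 0.53, standard error 0.08).

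BIK and BMF, both BH3-only genes, lay at the low end of the scale. BIK read 6.19, 5.98 and 6.20 in SY5Y-TR1, against 5.38, 5.28 and 5.35 in SH-SY5Y, 0.79 log2 units higher in SY5Y-TR1 (standard error 0.07, limma adjusted p = 5.89e-05). All 6 arrays were under the background level, so no fold is given for BIK. BMF, whose protein is held at the cytoskeleton until a cell loses attachment, read 6.39, 6.65 and 6.61 in SY5Y-TR1, against 7.02, 6.82 and 6.72 in SH-SY5Y. Its log2 difference was -0.30 (standard error 0.10, adjusted p = 0.0364 from limma), with SY5Y-TR1 replicate 1 barely above the background level. BMF passed 0.05 narrowly: its adjusted p was 0.102 without SY5Y-TR1 replicate 1, 0.0586 without SY5Y-TR1 replicate 3, 0.0982 without SH-SY5Y replicate 1 and 0.0674 without SH-SY5Y replicate 2 (limma).

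**Figure D3:**
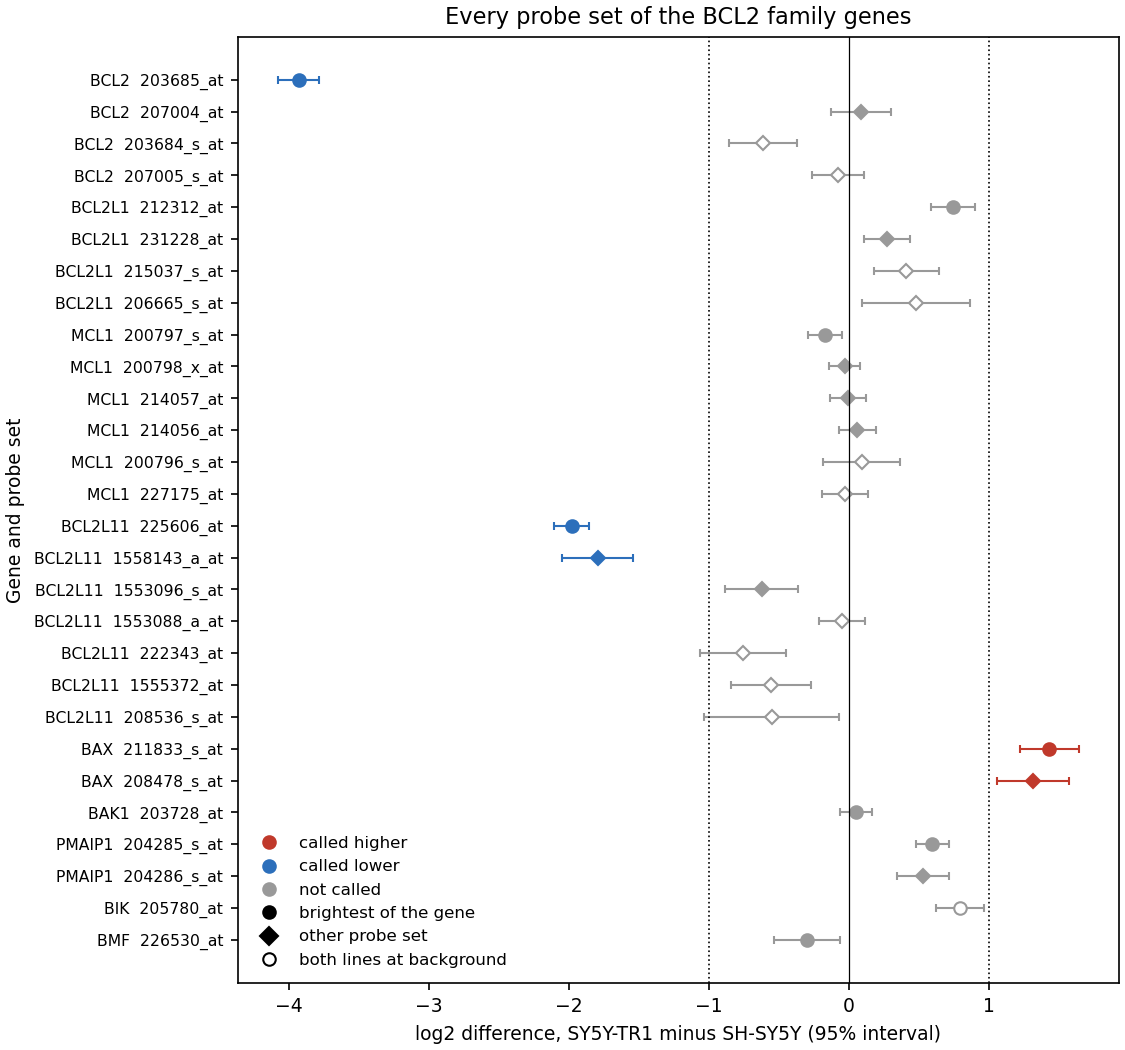
Log2 difference of SY5Y-TR1 minus SH-SY5Y (x axis) with its 95% interval for every probe set of 9 BCL2 family genes (rows), n = 3 arrays in each line. Circles are the brightest probe set of a gene and diamonds the others, open symbols lie under the background level in both lines, red and blue mark probe sets called higher and lower, and dotted lines mark 2-fold. Both BAX probe sets, 2 of 7 for BCL2L11 and 1 of 4 for BCL2 lie beyond 2-fold.

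Over the whole family, 5 of 28 member probe sets were called, 2 higher and 3 lower, where 8.37% of all probe sets were called (3.79% higher and 4.58% lower). To see which pairs of a death gene and a survival gene changed unequally, the difference of their signals was taken within each array and compared between the lines for 5 pairs. The difference of BCL2L11 and MCL1 shifted by -1.81 on the log2 scale in SY5Y-TR1 and that of BCL2L11 and BCL2L1 by -2.72, whereas that of PMAIP1 and MCL1 was higher by 0.77. The pairs of BCL2L11 with BCL2 and of BAX with BCL2 hold a BCL2 signal that is only bounded in SY5Y-TR1, so no shift is read from them. For each of the other 3 pairs the exact permutation test over arrays (two-sided) gave p = 0.1, also after adjustment over all 5, which is the smallest p that 3 against 3 arrays allow.

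Among 13 other genes of the family or named after it, 1 was higher, 1 lower and 11 were not called. Their median log2 difference was 0.13, and 11.4% of all genes were called. BCL2L12, which encodes a proline-rich relative, read 7.22, 7.13 and 7.28 in SY5Y-TR1, against 8.44, 8.34 and 8.30 in SH-SY5Y (log2 difference -1.15, standard error 0.06, adjusted p = 3.71e-06 from limma). BCL2A1, a survival gene of blood cells, passed with every array of both lines under the background level, so no fold is read. BID, which links death receptors to the mitochondria, had a log2 difference of 0.45, and BNIP3L, a mitophagy receptor of the outer membrane, one of 0.94, and both passed at an adjusted p of 0.05 without reaching 2-fold. BAD, HRK and BOK, which encode further death-promoting members, had log2 differences from -0.01 to 0.03 and did not pass, and HRK lay under the background level in both lines.

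Downstream of the mitochondrial pore, 14 genes of the apoptosome, the caspases and their inhibitors were measured, all above the background level in both lines. None was higher, 2 were lower and 12 were not called (median log2 difference -0.21), where 11.4% of all genes were called. BIRC5, which encodes survivin, an inhibitor of apoptosis that also serves in mitosis, read 9.46, 9.54 and 9.45 in SY5Y-TR1, against 11.99, 11.94 and 11.96 in SH-SY5Y. It was 5.57-fold lower (log2 difference -2.48, standard error 0.05, adjusted p = 4.08e-08 from limma), and its lines were far apart. ENDOG, a mitochondrial nuclease, was 3.74-fold lower (log2 difference -1.90, standard error 0.05, adjusted p = 1.53e-07 from limma). CASP9, the initiator caspase of this route, and XIAP, which blocks caspases, had log2 differences of 0.25 each, and APAF1, the scaffold of the apoptosome, one of -0.27.

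Of 17 measured transcription factors known to act on genes of the family, none was higher and 2 were lower. The other 15 were not called (median log2 difference 0.08), where 11.4% of all genes were called. MYC, a factor that sensitizes cells to mitochondrial death, read 7.92, 7.86 and 7.92 in SY5Y-TR1, against 10.00, 10.06 and 10.01 in SH-SY5Y, and was 4.37-fold lower (log2 difference -2.13, standard error 0.04, adjusted p = 5.91e-08 from limma). FOS, which encodes an AP-1 subunit, read 6.03, 5.84 and 5.96 in SY5Y-TR1, against 9.28, 9.00 and 9.32 in SH-SY5Y. With all its SY5Y-TR1 arrays under the background level, FOS was at least 7.17-fold lower (adjusted p = 2.91e-07 from limma). ATF4, a factor of the stress response, had a log2 difference of -0.96, and DDIT3, its target that is known to raise BIM, one of 0.86.

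**Figure D4:**
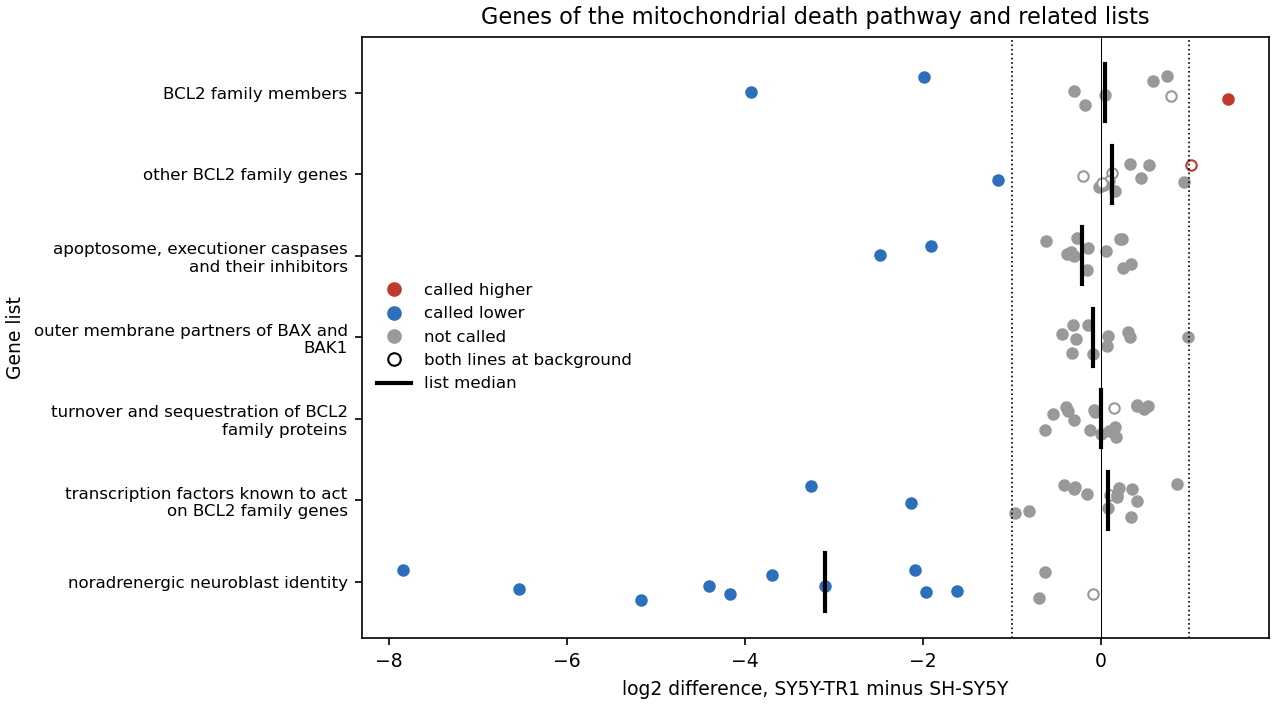
Log2 difference of SY5Y-TR1 minus SH-SY5Y (x axis) for each measured gene of 7 lists (rows); each point is a gene, red and blue are genes called higher and lower, grey genes were not called, open circles lie under the background level in both lines, the black bar is the list median and dotted lines mark 2-fold. The medians of the 6 death pathway lists lie between -0.21 and 0.13, and that of the noradrenergic list at -3.10.

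In the same comparison, many genes of the noradrenergic neuroblast were also lower in SY5Y-TR1. Of 13 measured markers of that state, 10 were lower and 3 were not called (median log2 difference -3.10). Over all genes, 5.99% were called lower. The summed linear signal of the 13 markers per array was 5177 to 5424 in SY5Y-TR1 and 32628 to 33692 in SH-SY5Y. The brightest probe sets weigh most in this sum, so it is not an amount of transcript. DBH, which makes noradrenaline, and DDC, which makes dopamine, were under the background level on every SY5Y-TR1 array, whereas GATA3, a transcription factor of the sympathetic lineage, still read 10.63 to 10.67 there, against 12.66 to 12.79 in SH-SY5Y. The part of this shift in the values of BCL2 and BCL2L11 was not tested.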

How the data were processed

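The authors deposited log2 RMA signals per probe set of Affymetrix U133 Plus 2.0 arrays, made with Affymetrix Expression Console according to the submitters' processing notes; the sources used here name no version. Background correction and normalization were thus part of the values and could not be varied from scanner signals. Control probe sets (62) were dropped. Of the 54613 others, 41091 carried 1 gene symbol, 1801 several and 11721 none. Symbols were updated through a RefSeq gene table of GRCh38.p14, which 41037 probe sets matched by gene ID. Of the 10 members 9 were measured. SY5Y-TR1 was set against SH-SY5Y with lmFit and eBayes of limma 3.58.1 (R 4.3.3) over 19775 genes, without a replicate block, and over all probe sets for the other probe sets of a gene, with Benjamini-Hochberg adjustment. The 2-fold limit is that of the study. The fit was tested on simulated data.

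The members, the lists and the named genes were chosen with earlier results of these data known. Named genes are the members, the called genes of each related list or its 2 brightest members, and the defining markers. BID, BAD, HRK, BOK, BNIP3L, CASP9, XIAP, APAF1, FOXO1, FOXO3, ATF4, DDIT3 and SH3GLB1 were added after their values were seen. Genes of the lists that are not counted as measured were not analysed here. Promoter windows came from RefSeq (GRCh38.p14) and were found for 8 of 10 members. In the 250 bases before the start, the E-box CACGTG, the AP-1 element TGANTCA, the FOXO element TGTTTAC and the GC box GGGCGG were searched on both strands, and no match overlapped another in the windows of the members. Besides the matches described above, the window of BBC3 held 1 E-box and the only AP-1 match, an element in 6.57% of all windows. GC boxes, in 42.6% of all windows, numbered 4 for PMAIP1, 3 for BCL2L11, 2 for BAK1 and 1 each for BAX and BMF. The window of BCL2 lies inside a longer transcript and is not printed. Sample numbers of the lines share no origin by the labels. The number of arrays limits the precision.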

Additional observations from a re-analysis of the deposited data

How the results depend on the processing

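With the mean of all probe sets BCL2L11 did not reach 2-fold (log2 difference -0.90), BCL2 shrank to -1.13 and 2 members were called. With no fold limit 8 members and 10447 genes passed (5634 higher, 4813 lower), and with a 1.5-fold limit 6 members and 4333 genes (2171 higher, 2162 lower). Fits that left out 1 array each called 3 members and 2236 to 2281 genes. Without SY5Y-TR1 replicate 1 or SH-SY5Y replicate 3, and with arrays centred on housekeeping genes, BCL2A1 fell under the limit and left 1 call among the other family genes. Without SY5Y-TR1 replicate 2, SH3GLB1 passed it. With a replicate block 3 members and 2245 genes were called, and no call on a member changed, but the adjusted p of BMF was 0.0854, and 0.112 in the methods' t-test. Same-numbered arrays did not deviate together (correlations of deviations 0.0002, 0.02 and 0.03). These values cannot show whether same-numbered arrays were processed together. The methods' t-test at the study's limits, after Benjamini-Hochberg, gave 2245 genes and 3 members. The BCL2 bound moved with the background level, to at least 8.27-fold at the 80th percentile and 3.54-fold at the 95th, a choice added after seeing the data. BIK gave no value when signals were raised to that level. With probe sets free of shared-sequence names, BAX and PMAIP1 had none left, and 2 members were called. Signal over background limits BCL2 in SY5Y-TR1 and BIK.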

Other observations

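Genes that act on BCL2 family proteins after transcription gave no call in either list, where 11.4% of all genes were called. Of 11 outer membrane partners of BAX and BAK1, all above the background level in both lines, none was called (median log2 difference -0.09). VDAC2, the channel that holds BAK in the outer membrane, read 12.43, 12.36 and 12.41 in SY5Y-TR1, against 12.33, 12.32 and 12.29 in SH-SY5Y, and did not pass (log2 difference 0.09, adjusted p = 0.125 from limma). VDAC3, a related channel, read 12.20, 12.14 and 12.13 in SY5Y-TR1, against 12.44, 12.42 and 12.43 in SH-SY5Y, and passed without the fold limit (log2 difference -0.27, adjusted p = 0.00114 from limma). SH3GLB1, which encodes the BAX-binding protein BIF-1, came nearest to the limit, at 11.41, 11.26 and 11.31 in SY5Y-TR1, against 10.35, 10.35 and 10.32 in SH-SY5Y (log2 difference 0.98, standard error 0.05, adjusted p = 3.80e-06 from limma).

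None of 17 measured genes for the turnover or sequestration of BCL2 family proteins was called either (median log2 difference 0.005). HUWE1, a ubiquitin ligase that marks MCL1 for breakdown, had a log2 difference of 0.09 and did not pass (adjusted p = 0.0814 from limma). YWHAZ, a 14-3-3 protein of the kind that binds phosphorylated BAD, had one of 0.16 (adjusted p = 0.00977 from limma). Without the fold limit, 3 outer membrane partners were higher and 5 lower, as were 6 and 5 of the turnover and sequestration genes. Of all genes, 52.8% passed in this way (28.5% higher and 24.3% lower).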
